A study of Mus musculus with 35 samples.

Results

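The Zfp family as described here is every mouse gene whose name is Zfp followed by digits alone and that has a row in the deposited table of read counts. By that naming rule, 196 of the 9239 genes with counts were members. The table of expression levels, which lists 54393 genes, named 373 such genes, and the other 177 had no row of counts and entered no test. The RNA came from N2a mouse neuroblastoma cells carrying a Flp-In site and the rtTA activator, in 2 lines that differ in the FLAG-tagged Chtop cDNA they can be induced to express: the mEx5 cDNA lacks exon 5 and the pEx5 cDNA contains it. Each line was transfected in 3 ways. Knockdown cells received siRNA against Chtop, rescue cells received the same siRNA together with doxycycline, which turned on an siRNA-resistant Chtop cDNA, and control cells received a pool of non-targeting siRNAs. Medium was changed at 24 h from transfection, with doxycycline added for the rescue only, and cells were harvested at 72 h. Control RNA came from fewer dishes than that of the other transfections. No control library received doxycycline, so re-expression and the drug cannot be told apart. Polyadenylated RNA was sequenced from whole cells (total RNA), from nuclei and from cytoplasm. The 35 libraries fall into 18 groups of 2, except that cytoplasm of pEx5 control cells has 1.

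Most Zfp proteins carry C2H2 zinc fingers, short folds in which a pair of cysteines and a pair of histidines hold a zinc ion, and arrays of fingers in a row read DNA or RNA. Many also begin with a KRAB box, which recruits the co-repressor TRIM28 and through it SETDB1 and HP1 proteins, and such KRAB zinc finger proteins are best known for silencing transposable elements and imprinted regions. The genes lie in clusters of recent duplicates, so neighbours can be nearly alike in sequence. Chtop is an arginine-rich RNA-binding protein of the TREX complex, which couples transcription and splicing to the export of mRNA from the nucleus.

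The sequence that recurs in this family codes for the linker that joins one finger to the next, in amino acid names threonine, glycine, glutamate, lysine or arginine, and proline. The annotated coding sequences were searched for such linkers followed by tyrosine or phenylalanine and lying, with their flanking triplets, within a single exon. The search found 753 in 136 of the 196 members. The most frequent way of writing its first 14 bases was ACTGGAGAGAAACC, present in the coding strand of 46 members (23.5%) against 61 of all 9239 genes with counts (0.66%). One linker is printed for each of 11 members among the 8 largest knockdown increases in some fraction, Zfp397 being the one such member without a printed linker, because these genes carry the results below and because the shared letters show how reads of 1 member can resemble another. Capitals mark the 15 linker bases, and lower case marks the last base triplet of one finger and the 3 triplets after the linker. Those 3 triplets open the next finger with a cysteine triplet, tgt or tgc, as the last. The exception is Zfp932, where the last triplet is ggt and does not code for cysteine. All coordinates are mm10.
Zfp961, chr8:71968554-71968580, plus strand: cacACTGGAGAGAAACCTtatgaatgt
Zfp367, chr13:64144165-64144191, minus strand: catACCGGAGAGAAGCCTtttgtctgt
Zfp651, chr9:121767572-121767598, plus strand: cacACAGGAGAGAAGCCAtacccgtgt
Zfp568, chr7:30023540-30023566, plus strand: cacACCGGTGAGAAGCCCtataagtgc
Zfp386, chr12:116059948-116059974, plus strand: cacACTGGAGAGAAACCCtacaggtgt
Zfp160, chr17:21026027-21026053, plus strand: cacACTGGAGAGAAACCTtacaggtgc
Zfp773, chr7:7132615-7132641, minus strand: cacACTGGAGAGAAACCTtataaatgc
Zfp931, chr2:178067773-178067799, minus strand: catACAGGAGAGAAACCCtatgaatgt
Zfp970, chr2:177475007-177475033, plus strand: catACAGGAGAGAAACCCtatgaatgt
Zfp985, chr4:147583706-147583732, plus strand: cacACCGGAGAGAAACCTtacaaatgc
Zfp932, chr5:110008645-110008671, plus strand: catACTGGAGAGAAACCCtacgaaggt
The Zfp931 and Zfp970 windows are the same 27 letters at different places on chromosome 2. Both genes shared most of their sequence with other genes: 71.1% of the 31-base words of the Zfp931 transcript and 76.9% of those of the Zfp970 transcript also occurred in another annotated gene. The share was 73.5% for Zfp932 and 40.4% for Zfp985, and it was over 20% for 29 members in all. Values of these genes are uncertain, since the counting could move reads among copies. For Zfp961, Zfp651, Zfp568, Zfp160, Zfp386 and Zfp773 the share lay between 0.14% and 4.47%, and Zfp367 shared no such word.

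Depth was 20652832 to 36102129 assigned reads in the 12 total libraries, 11681781 to 28705620 in the 12 nuclear and 19478702 to 40105458 in the 11 cytoplasmic ones. Levels below are given as CPM, a gene's count scaled to the library's assigned reads. In total RNA, Chtop itself had 19.8 to 34.7 CPM in knockdown libraries, 186 to 281.5 CPM in rescue libraries and 125 to 139 CPM in control libraries, n = 4 each. Its fall was smaller in nuclei, with 57.3 to 70.6 CPM in knockdown, 222 to 302 in rescue and 94.9 to 129 in control, n = 4 each. In cytoplasm it had 17.7 to 31.2 CPM in knockdown, 175 to 203 in rescue (n = 4 each) and 137 to 148 in control (n = 3). Of 17 neuroblastoma markers 16 reached a median of 1 RPKM in control total RNA, RPKM being the scale per transcript length and library size. Tubb3, Stmn2, Phox2a and Hand2 were the highest, at 227 to 764 RPKM. Th did not reach it, at 0.79 RPKM, and Dbh, Gata3 and Isl1 were low, at 2.2 to 3.1 RPKM. Of 10 markers of fibroblasts, glia, immune and epithelial cells 2 reached 1 RPKM, Mbp at 4.2 and Cd68 at 1.3 RPKM. No spike-in is named, so a change is always relative to the rest of the RNA in the library. In bulk RNA, fewer cells of a kind and less RNA per cell cannot be told apart. The labels call the 2 libraries of a group biological replicates without saying whether separate cultures lie behind them, so p-values measure the spread between these libraries.

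The members were expressed at modest levels. On the scale per length, mean RPKM over the control total libraries had a median of 9.63 among the 196 members, between 3.42 and 96.95, against 26.1 among all 9239 genes with counts. The highest was Zfp330 at 77.3 ± 5.71 RPKM in knockdown, 79.1 ± 5.21 in rescue and 96.95 ± 4.10 in control total RNA (SD, n = 4 each). Zfp706 came next, at 96.0 ± 18.7 RPKM in knockdown, 95.96 ± 20.7 in rescue and 72.6 ± 4.82 in control (SD, n = 4 each). The 177 Zfp genes without counts had a median of 1.43 RPKM and reached 8.85 RPKM, and 109 of them were at 1 RPKM or more.

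By the coding sequences, 84 members had a KRAB match together with C2H2 fingers, 107 had fingers without a KRAB match, and 5 (Zfp264, Zfp330, Zfp365, Zfp781 and Zfp972) had no finger match. The KRAB pattern is strict: it did not match Zfp57, which is known to have a KRAB box. Members with KRAB had a median of 11 fingers and 43.4% GC in the transcript, and fingered members without it 7 fingers and 51.4% GC. The largest array, 37 finger matches, was that of Zfp142. Members had a median of 5 exons and a longest exon of 2441.5 bases, against 9 exons and 1232 bases among all genes with counts, and chromosome 7 alone held 51 members. Another gene named Zfp and digits lay within 500 kb of 124 members, up to 18 of them.

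In control cells, Zfp transcripts lay on the nuclear side. Of the 196 members, 129 were higher in nuclei than in cytoplasm and 15 were lower by the quasi-likelihood test of edgeR, with p-values adjusted by Benjamini-Hochberg over all genes and a threshold of 0.05. Among all 9239 genes tested, 33.8% were higher and 36.1% were lower. The median log2 ratio of nuclei over cytoplasm was 0.51 over the members and -0.03 over all genes. Each fraction is scaled to its own total, so the ratio ranks transcripts and does not count molecules per cell. Both lines showed it: the median was 0.59 in mEx5 and 0.41 in pEx5 cells. In the authors' deposited table the median control log2 ratio of nuclei over cytoplasm was 0.35 over the members and -0.03 over all genes. Of 45 zinc finger genes outside the naming rule, taken up again below, 57.8% were higher in nuclei and 11.1% lower by edgeR. The members' shares were 65.8% and 7.65%. The median log2 ratio of those 45 genes was 0.63, so the nuclear side is not shown to be particular to the names chosen here.

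KRAB members were higher in nuclei in 62 of 84 cases and lower in none, with a median log2 ratio of 0.60. Fingered members without KRAB were higher in 64 and lower in 14 of 107, with a median of 0.39. By finger number, 62 of 81 members with 11 or more fingers were higher in nuclei, 42 of 69 with 6 to 10, and 22 of 41 with 1 to 5, and the medians were 0.59, 0.49 and 0.26. Whether these classes differ was not tested. Across the 196 members the ratio followed finger number with a Spearman rho of 0.21 and transcript length with a rho of 0.13. Across all genes finger number had a rho of 0.14 and transcript length a rho of 0.38. These are descriptions across genes of the same libraries.

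**Figure D1:**
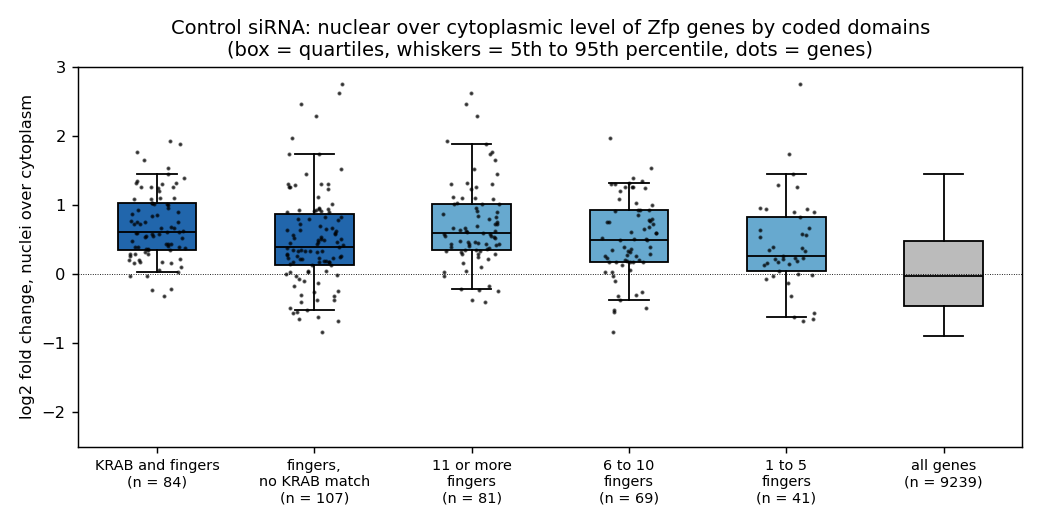
Log2 fold change of nuclei over cytoplasm in control cells (y axis) for members grouped by coded domain and by finger number, and for all genes. Boxes show quartiles and whiskers the 5th to 95th percentile. Medians lie at 0.60 with KRAB, 0.39 without, 0.59, 0.49 and 0.26 for falling finger number, and -0.03 for all genes. The 5 members without a finger match are not drawn.

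Zfp692 had the highest ratio, with 172, 192, 179 and 174 CPM in control nuclei against 26.7, 35.7 and 23 CPM in control cytoplasm. Every nuclear library lay above every cytoplasmic one, and the log2 ratio was 2.75 ± 0.14 (SE, adjusted p = 2e-10). Zfp292 followed with 229, 428, 195 and 346 CPM in nuclei against 46.3, 56.4 and 46.6 CPM in cytoplasm, a log2 ratio of 2.62 ± 0.35 (SE, adjusted p = 6.9e-06). In both lines the library numbered 2 was well above the library numbered 1 for this gene. The others among the 8 highest were Zfp970, Zfp934, Zfp579, Zfp101, Zfp944 and Zfp948, at log2 ratios of 1.76 to 2.46. Zfp970, Zfp934 and Zfp944 share over 20% of their sequence words with other genes. Zfp57, which keeps the methylation of imprinting control regions, had 75, 92.2, 76.1 and 86.9 CPM in control nuclei against 23.8, 31.1 and 22.6 CPM in control cytoplasm, a log2 ratio of 1.74 ± 0.13 (SE, adjusted p = 1.7e-08).

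The 8 lowest ratios were those of Zfp931, Zfp365, Zfp277, Zfp580, Zfp593, Zfp428, Zfp637 and Zfp771, from -0.85 to -0.53. Zfp365, a centrosomal protein also known as a partner of DISC1 and one of the members without a finger match, had 96.3, 85.4, 97.4 and 113 CPM in control nuclei against 156, 162 and 193 CPM in control cytoplasm. The groups do not overlap, and its log2 ratio was -0.84 ± 0.09 (SE, adjusted p = 7.5e-07). Zfp593, whose yeast counterpart Bud20 helps export the large ribosomal subunit, had a log2 ratio of -0.62 ± 0.11 (SE, adjusted p = 0.00011). Of its exon bases 76.9% overlap exons of another gene, and no source used here says how the counting treated strand, so its reads may not be its own.

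After Chtop knockdown more members rose than fell, in each fraction. In total RNA 69 members rose and 16 fell, against 21.4% of all 9237 genes tested that rose and 22.6% that fell. The median log2 fold change of knockdown over control was 0.17 over the members and 0.01 over all genes. In cytoplasm 89 rose and 11 fell, against 19.8% and 20.9% of 9238 genes, with medians of 0.24 and 0.00. In nuclei 49 rose and 7 fell, against 15.4% and 16% of 9239 genes, with medians of 0.17 and 0.00. Same-numbered libraries deviated together in total RNA and nuclei, and the counts above leave that pairing out. With the number as a block 94 members rose and 17 fell in nuclei, against 27.8% and 27.6% of all genes. The block gave 96 that rose and 23 that fell in total RNA, and the shares of all genes for that fit are not given here. In cytoplasm the count of falling members depended on single libraries. It was 6 without mEx5 knockdown replicate 1 and 7 without mEx5 knockdown replicate 2, where 15.9% and 18.3% of all genes fell. The counts of rising members also moved when single libraries were left out. They were 49 to 75 in total RNA, 35 to 52 in nuclei and 61 to 103 in cytoplasm. Over all genes 16.1% to 22.1%, 11% to 16.2% and 15.2% to 22.5% rose in the same order.

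Summed over the 196 members, knockdown libraries had 6145 to 6759 CPM, rescue libraries 6300 to 6851 and control libraries 5592 to 6006 in total RNA, n = 4 each. In nuclei the sums were 9611 to 10959 in knockdown, 9205 to 10777 in rescue and 8567 to 10085 in control, n = 4 each. In cytoplasm they were 7332 to 7689 in knockdown, 7264 to 7757 in rescue (n = 4 each) and 6054 to 6453 in control (n = 3). Knockdown and rescue sums lay above every control sum in total RNA and cytoplasm, and the ranges overlapped in nuclei. Set beside the same-numbered control library of its line, each nuclear knockdown sum was the higher one, in 4 of 4 pairs. For mEx5 the pairs were 9611 against 9372 CPM and 10636 against 10085 CPM, and for pEx5 10132 against 8567 CPM and 10959 against 9467 CPM. The nuclear rescue sum was the higher one in 2 of 4 pairs, both of the pEx5 line.

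**Figure D2:**
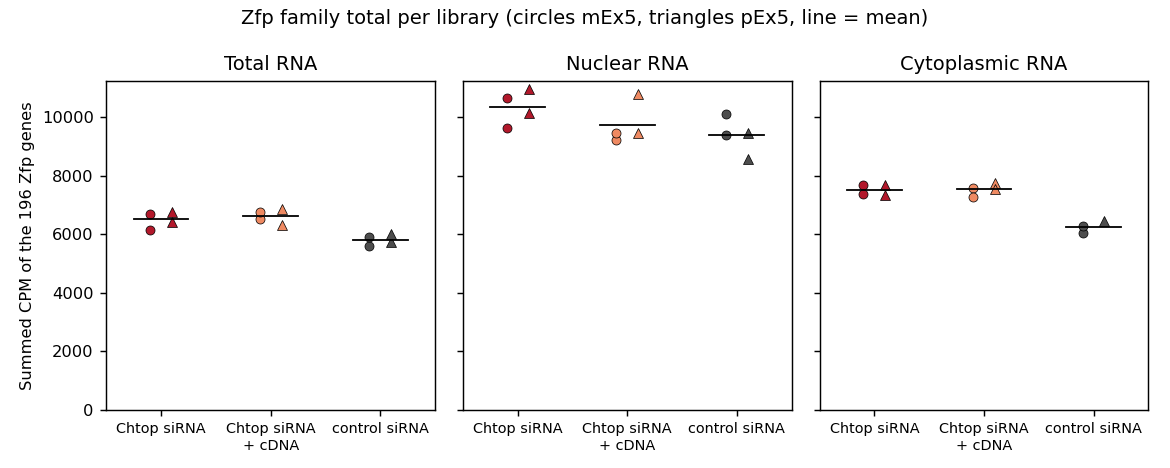
Summed CPM of the 196 members in each library (y axis), by fraction and transfection, with circles for mEx5 and triangles for pEx5 and a line at the mean. In cytoplasm the knockdown libraries span 7332 to 7689 CPM and the control libraries 6054 to 6453 CPM.

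**Figure D3:**
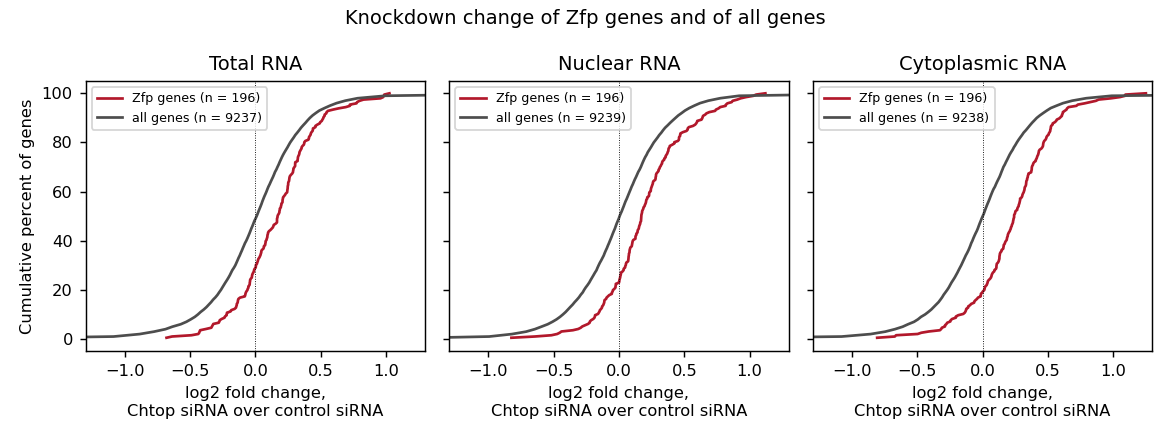
Cumulative percent of genes (y axis) at or below a log2 fold change of knockdown over control (x axis), for the 196 members and all genes tested. The members' curve lies right of that of all genes in the middle of each panel, with medians of 0.17, 0.17 and 0.24 in total, nuclear and cytoplasmic RNA.

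Across the 3 fractions, 30 members rose in all 3 and 5 fell in all 3, against 7.55% and 10.3% of the 9236 genes tested in every fraction. At least 1 fraction called 111 members higher and 19 lower, against 30.8% and 29.8% of those genes. There were 66 members called in none, against 40% of genes, and 0 called in opposite directions, against 0.541%. The fractions come from the same cell harvests, so these calls are not independent of each other. Members called higher in all 3 were Zfp101, Zfp105, Zfp113, Zfp146, Zfp160, Zfp207, Zfp266, Zfp276, Zfp369, Zfp386, Zfp397, Zfp410, Zfp422, Zfp513, Zfp568, Zfp592, Zfp629, Zfp651, Zfp672, Zfp764, Zfp773, Zfp777, Zfp809, Zfp821, Zfp866, Zfp931, Zfp932, Zfp942, Zfp961 and Zfp970. Those called lower in all 3 were Zfp143, Zfp277, Zfp362, Zfp365 and Zfp775.

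Zfp961 (ENSMUSG00000052446, chromosome 8, 71951038 to 71993792, plus strand), a gene with 11 finger matches, had the largest knockdown increase in total RNA and in cytoplasm. Its total RNA level was 15.5, 16.6, 16.2 and 14.9 CPM in knockdown libraries against 8.24, 8.63, 7.94 and 6.05 CPM in control libraries. In nuclei it had 17.7, 20.7, 21.1 and 23.9 CPM after knockdown against 11.7, 12, 11.1 and 10.1 CPM in control. In cytoplasm it had 21.6, 20.3, 24.2 and 21.3 CPM after knockdown against 6.74, 8.98 and 9.89 CPM in control. Knockdown and control values do not overlap in any fraction. The log2 fold changes were 1.03 ± 0.09 in total RNA, 0.93 ± 0.10 in nuclei and 1.25 ± 0.12 in cytoplasm (SE; adjusted p = 3.7e-05, 0.00029 and 2.4e-05).

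Zfp651 (ENSMUSG00000013419, chromosome 9, 121759330 to 121771742, plus strand) carries the iCLIP mark described below. It had 38.8, 42.5, 40.3 and 41.4 CPM in knockdown total RNA against 18.6, 19.2, 21.4 and 23 CPM in control total RNA. In cytoplasm the values were 45.5, 42.8, 40.0 and 42.9 CPM after knockdown against 16.8, 18.3 and 21.4 CPM in control. Every knockdown library was well above every control library. The log2 fold change was 0.98 ± 0.06 in total RNA, 0.58 ± 0.08 in nuclei and 1.09 ± 0.08 in cytoplasm, all past the threshold.

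Zfp367 (ENSMUSG00000044934, chromosome 13, 64133018 to 64153202, minus strand) rose in total RNA and cytoplasm. Its total RNA level was 30.7, 30, 30.3 and 27.8 CPM after knockdown against 17.7, 15.6, 15.4 and 11.4 CPM in control, a log2 fold change of 0.98 ± 0.11 (SE, adjusted p = 0.00012). In nuclei it had 47.5, 32.8, 48.3 and 32.3 CPM after knockdown against 56.1, 29.2, 41.7 and 22 CPM in control. Those nuclear groups overlap, and the libraries numbered 1 were the high ones in both. Of its exon bases 17.1% overlap another annotated gene.

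Zfp568 (ENSMUSG00000074221, chromosome 7, 29983955 to 30028282, plus strand) is a KRAB protein known in mouse embryos for repressing a placental Igf2 transcript. Its total RNA level was 30.3, 33.4, 34.2 and 32.7 CPM after knockdown against 18.9, 19.3, 18.5 and 18.6 CPM in control. The control libraries lay within 1 CPM of each other and every knockdown library was above them. The log2 fold change was 0.78 ± 0.06 in total RNA, 0.47 ± 0.13 in nuclei and 0.83 ± 0.12 in cytoplasm (SE; adjusted p = 2.1e-05, 0.021 and 0.00027).

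Zfp386 (ENSMUSG00000042063, chromosome 12, 116047724 to 116063360, plus strand) had the largest nuclear increase. Nuclear libraries had 42.7, 40.5, 46.8 and 46.1 CPM after knockdown against 19.7, 24.2, 20.6 and 18.5 CPM in control, a log2 fold change of 1.12 ± 0.09 (SE, adjusted p = 6.7e-05). Zfp160 (ENSMUSG00000067942, chromosome 17) had 28.5, 35.5, 37.1 and 33 CPM in knockdown nuclei against 14.8, 23.1, 13.3 and 16.3 CPM in control nuclei, a log2 fold change of 1.03 ± 0.15 (SE, adjusted p = 0.00097). In neither gene do the groups overlap. Zfp773 (ENSMUSG00000063535, chromosome 7) had 29.2, 24.1, 35.4 and 24.7 CPM in knockdown nuclei against 15.4, 16.9, 13.7 and 13.3 CPM in control nuclei, a log2 fold change of 0.97 ± 0.12 (SE, adjusted p = 0.00044). Zfp397 was among the 8 highest in all 3 fractions, at log2 fold changes of 0.96 in total RNA, 1.05 in nuclei and 0.98 in cytoplasm. The others among the 8 highest in some fraction were Zfp931, Zfp932, Zfp970 and Zfp985, the genes with many shared sequence words, at 0.77 to 0.91.

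Zfp362 (ENSMUSG00000028799, chromosome 4, 128773088 to 128806045, minus strand) had the largest fall in total RNA and cytoplasm. Its total RNA level was 36.2, 40.6, 38.0 and 43.4 CPM after knockdown against 59.1, 57.1, 68.6 and 66.6 CPM in control. In cytoplasm it had 46.5, 43.2, 40.0 and 45.9 CPM after knockdown against 65.5, 68.0 and 82.5 CPM in control. The groups do not overlap. Its log2 fold change was -0.68 ± 0.06 in total RNA, -0.52 ± 0.11 in nuclei and -0.81 ± 0.09 in cytoplasm (SE; adjusted p = 3.8e-05, 0.0051 and 7.7e-05).

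Zfp365 had the largest nuclear fall, with 46.0, 50.0, 52.9 and 67.7 CPM in knockdown nuclei against 96.3, 85.4, 97.4 and 113 CPM in control nuclei. The log2 fold change was -0.82 ± 0.10 (SE, adjusted p = 0.00045), and it was -0.42 in total RNA and -0.47 in cytoplasm, both past the threshold. Zfp512 had 31.1, 40.2, 31.1 and 39.5 CPM in knockdown total RNA against 53.6, 54.2, 48.4 and 62.3 CPM in control total RNA, a log2 fold change of -0.64 ± 0.10 (SE, adjusted p = 0.00091). Every knockdown library was below every control library for both genes. The remaining falls in total RNA that the naming rule picked were those of Zfp954, Zfp775, Zfp317, Zfp277 and Zfp511, from -0.49 to -0.38. Of the exon bases of Zfp511, 18.1% overlap Tubgcp2.

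Both domain classes took part. In cytoplasm 35 of 84 KRAB members rose and 2 fell, and 53 of 107 fingered members without KRAB rose and 8 fell. In nuclei 30 KRAB members rose and 1 fell, against 19 that rose and 5 that fell among those without KRAB. By finger number, 44 of 81 members with 11 or more fingers rose in cytoplasm, 31 of 69 with 6 to 10 and 13 of 41 with 1 to 5, with median log2 fold changes of 0.32, 0.27 and 0.15. In nuclei the corresponding counts were 19, 22 and 8. Finger number and cytoplasmic change had a Spearman rho of 0.24 across the 196 members and 0.14 across all genes. For the longest exon and the same change, rho was 0.20 across the members and 0.19 across all genes. Of the 46 members with the 14-base linker word printed above, 24 rose and 0 fell in cytoplasm, and 65 rose and 11 fell of the 150 without it. Members with another Zfp gene within 500 kb rose in 63 of 124 cases in cytoplasm, and those without one in 26 of 72. Beside these counts, 19.8% of all genes rose and 20.9% fell in cytoplasm, and 15.4% rose and 16% fell in nuclei. No class difference was tested.

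The deposited annotation marks genes that overlap Chtop iCLIP sites, which are places on RNA where crosslinking found Chtop bound. The mark was TRUE for 112 of the 196 members (57.1%) and for 4484 of all 9239 genes (48.5%). It was TRUE for 35 of 84 KRAB members (41.7%) and for 75 of 107 fingered members without KRAB (70.1%). Marked members were higher in nuclei of control cells in 83 of 112 cases and lower in 4, with a median log2 ratio of 0.60. Unmarked members were higher in 46 of 84 and lower in 11, with a median of 0.35. Among all genes the medians were 0.24 with the mark and -0.32 without it. In knockdown cytoplasm 54 of 112 marked members and 35 of 84 unmarked members rose, with medians of 0.24 and 0.26. In knockdown nuclei 20 marked and 29 unmarked members rose, with medians of 0.15 and 0.26. In total RNA 38 marked and 31 unmarked members rose, with medians of 0.16 and 0.19. Members with and without the mark therefore both had medians above 0 in every fraction. Of all genes, marked or not, 19.8% rose in cytoplasm, 15.4% in nuclei and 21.4% in total RNA. Knockdown shares of all genes split by the mark are not given here. No source used here gives the cells and conditions behind the iCLIP mark.

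A list of members known to act on RNA or ribosomes had 8 genes with counts, of which 2 rose in total RNA, 1 in nuclei and 2 in cytoplasm, and 1 fell in cytoplasm. The shares that rose, 25%, 12.5% and 25%, are near the 21.4%, 15.4% and 19.8% of all genes. Zfp207, also called BuGZ, a partner of the spindle checkpoint protein Bub3, had 208, 172, 212 and 185 CPM in knockdown nuclei against 144, 131, 127 and 110 CPM in control nuclei. Every knockdown library was above every control library, with a log2 fold change of 0.64 ± 0.09 (SE, adjusted p = 0.00078), and the change was 0.26 in total RNA and 0.24 in cytoplasm, both past the threshold. Zfp638, which takes part in silencing unintegrated retroviral DNA, rose by 0.29 in total RNA and 0.28 in cytoplasm. Zfp326, a subunit of the DBIRD complex that links elongation to splicing, had log2 fold changes of -0.26 in total RNA, -0.18 in nuclei and -0.32 in cytoplasm, and only the last passed the test. The remaining 5 passed in no fraction. They are Zfp598, the ubiquitin ligase of collided ribosomes, Zfp622, a maturation factor of the large ribosomal subunit, Zfp593, Zfp346, which binds double-stranded RNA, and Zfp106. Their log2 fold changes lay between -0.20 and 0.28.

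A list of 12 members known as DNA-binding regulators had 5 that rose and 1 that fell in total RNA, 2 and 1 in nuclei, and 5 and 1 in cytoplasm. The shares that rose were 41.7%, 16.7% and 41.7%, beside 21.4%, 15.4% and 19.8% of all genes, so the nuclear share is near the background. Zfp809, which recruits TRIM28 to the primer binding site of murine leukaemia viruses, rose in all 3 fractions. Its total RNA level was 7.75, 6.89, 6.68 and 6.95 CPM after knockdown against 5.16, 5.03, 4.86 and 5.55 CPM in control. In nuclei it had 11.3, 10.9, 10.1 and 10.8 CPM after knockdown against 7.61, 8.29, 5.83 and 6.27 CPM in control. The groups do not overlap, and the log2 fold changes were 0.44 ± 0.09, 0.67 ± 0.12 and 0.61 ± 0.13 in total, nuclear and cytoplasmic RNA (SE; adjusted p = 0.0042, 0.0023 and 0.0031). Zfp143, an activator of promoters that include those of small nuclear RNA genes, fell in all 3, with 22, 24.4, 24.0 and 24.2 CPM in knockdown nuclei against 31.5, 31.2, 28.6 and 32.6 CPM in control nuclei. Its log2 fold changes were -0.28, -0.35 and -0.27 in total, nuclear and cytoplasmic RNA.

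Zfp568 was the other member of that list that rose in all 3 fractions. Zfp148, a GC-box factor, and Zfp644, a partner of the G9a and GLP methyltransferases, rose by 0.32 and 0.37 in total RNA and by 0.35 and 0.34 in cytoplasm. Zfp281, a regulator of pluripotency, rose by 0.26 in total RNA. Zfp217, which works with the CoREST co-repressor, rose by 0.48 in cytoplasm. Zfp57, Zfp219, Zfp335, Zfp423 and Zfp462 passed in no fraction, with log2 fold changes between -0.31 and 0.23.

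Of 20 genes of the KRAB co-repressor machinery, 7 rose and 0 fell in total RNA, 8 rose and 1 fell in nuclei, and 5 rose and 0 fell in cytoplasm. As shares, 35%, 40% and 25% rose, beside 21.4%, 15.4% and 19.8% of all genes, and the cytoplasmic share is near that background. Falls made up 0%, 5% and 0%, beside 22.6%, 16% and 20.9% of all genes. Trim28 rose by 0.32 in total RNA, 0.40 in nuclei and 0.42 in cytoplasm. Morc2a, a partner of the HUSH silencing complex, rose by 0.39, 0.58 and 0.48, and Smarcad1, a chromatin remodeller, by 0.62, 0.35 and 0.50 in the same order. Setdb1, the methyltransferase that TRIM28 recruits, rose by 0.48 in nuclei, and Atf7ip, which stabilises SETDB1, fell by 0.30 there. Of the 45 zinc finger genes outside the naming rule (Zbtb, Zscan, Zkscan and like names), 15 rose and 4 fell in total RNA. In nuclei 7 rose and 4 fell, and in cytoplasm 18 rose and 1 fell. The shares in total RNA and cytoplasm, 33.3% and 40% higher, stand beside 35.2% and 45.4% of the members. In those fractions the increase is therefore not shown to be particular to the names chosen here. In nuclei 15.6% of these genes were higher and 8.89% lower, beside 25% and 3.57% of the members and 15.4% and 16% of all genes. That nuclear difference was not tested.

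The nuclear to cytoplasmic ratio itself changed in few members after knockdown. The ratio rose in 6 and fell in 2 of the 196, against 3.83% and 1.31% of all 9239 genes, which is near the background. With the replicate number as a block 13 rose and 8 fell, against 8.29% and 4.57% of all genes, and by DESeq2 9 rose and 3 fell, against 5.75% and 2.73%. With library totals as the scaling, 3 rose and 6 fell, against 2.23% and 4.45%, and the median over all genes moved to -0.09, against 0.01. The median change over the members was -0.05 on the log2 scale, with -0.14 in mEx5 and 0.04 in pEx5 cells. Leaving out single libraries left 2 to 6 members higher and 0 to 3 lower, against 1.48% to 4.37% and 0.379% to 1.66% of all genes. The higher members were 2 without mEx5 cytoplasmic knockdown replicate 1. They were 3 without mEx5 cytoplasmic knockdown replicate 2, mEx5 cytoplasmic control replicate 1, pEx5 cytoplasmic rescue replicate 1, or replicate 1 of the mEx5 knockdown, mEx5 control or pEx5 knockdown nuclei. The lower members were 0 without mEx5 cytoplasmic control replicate 1. They were 1 without replicate 1 of mEx5 or pEx5 cytoplasmic knockdown, replicate 1 of mEx5 or pEx5 nuclear knockdown, replicate 1 or 2 of mEx5 nuclear control, or pEx5 nuclear control replicate 2.

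Zfp985, with 40.4% shared sequence words, had the largest ratio change. It had 16.5, 12, 16.3 and 17.8 CPM in knockdown nuclei against 9.29, 7.94, 9.50 and 7.54 CPM in control nuclei, and 6.45, 4.99, 6.98 and 5.26 CPM in knockdown cytoplasm against 7.32, 5.97 and 7.47 CPM in control cytoplasm. It was higher in every knockdown nuclear library, and its ratio changed by 1.23 ± 0.21 on the log2 scale (SE, adjusted p = 0.0035). Zfp451, a SUMO ligase, had 88.0, 95.9, 114 and 106 CPM in knockdown nuclei against 67.6, 60.3, 55.9 and 59.9 CPM in control nuclei. Its cytoplasmic values were 61.7, 56.2, 63.7 and 53.9 CPM after knockdown against 50.0, 47.3 and 54.3 CPM in control, which overlap at the lowest knockdown library, and its ratio changed by 0.63 ± 0.11 (SE, adjusted p = 0.0036).

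Zfp317 stood the other way round: its nuclear groups overlapped, and cytoplasm had 14.9, 18.9, 15.7 and 17.1 CPM after knockdown against 22.7, 24.1 and 22.1 CPM in control, with a ratio change of 0.66 ± 0.15 (SE, adjusted p = 0.018). Zfp653, Zfp511 and Zfp207 rose by 0.63, 0.54 and 0.41 in the ratio. The ratio fell for Zfp142 by 0.53 and for Zfp651 by 0.49. Across the 196 members the ratio change had a Spearman rho of -0.30 with the longest exon, and -0.30 across all genes.

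**Figure D4:**
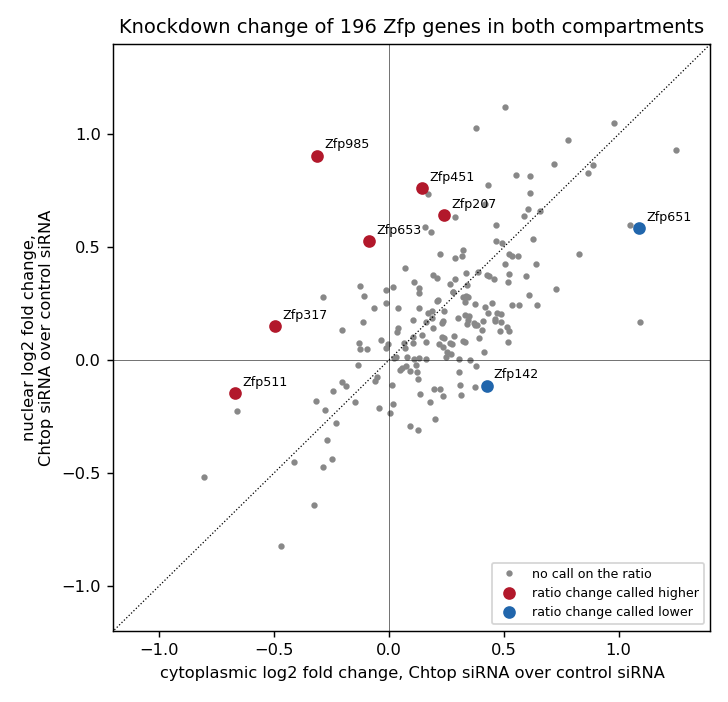
Log2 fold change of knockdown over control in cytoplasm (x axis) and in nuclei (y axis) for the 196 members, with the 8 members whose ratio changed named in red (higher) or blue (lower). Most members lie right of 0 and above it, and Zfp985 lies at 0.91 in nuclei with a negative cytoplasmic change.

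In rescue against knockdown, edgeR called 0 members higher and 0 lower in total RNA, nuclei and cytoplasm. Over all genes, 0.0217% were higher and 0% lower in total RNA, 0.0108% and 0% in nuclei, and 0.0325% and 0.0108% in cytoplasm. At an unadjusted p under 0.05, 6 members were higher and 7 lower in total RNA, 1 and 33 in nuclei, and 8 and 8 in cytoplasm. The shares of all genes at that p were 3.45% higher and 3.69% lower in total RNA, 3.78% and 4.57% in nuclei, and 5.08% and 4.51% in cytoplasm. DESeq2 called 5 members lower in nuclei, against 0.487% of all genes, and 0 elsewhere. The nuclear count depended on the pairing: with the replicate number as a block 1 member was higher and 30 were lower in nuclei, against 2.77% and 4.07% of all genes. In total RNA 1 was higher and 1 lower with the block, against 0.964% and 0.877%. In cytoplasm the result rested on 1 library, since without pEx5 knockdown replicate 2 there were 7 members higher and 15 lower, against 7.07% and 7.06% of all genes. The median log2 fold change of rescue over knockdown was 0.02 in total RNA, -0.08 in nuclei and -0.01 in cytoplasm, and the corresponding medians of all genes were 0.01, 0.00 and 0.00.

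The 5 nuclear genes called by DESeq2, named after their values were seen, were Zfp970, Zfp568, Zfp451, Zfp715 and Zfp386. Zfp451 had 66.4, 66.7, 77.6 and 77.9 CPM in rescue nuclei against 88.0, 95.9, 114 and 106 CPM in knockdown nuclei. All rescue libraries were below all knockdown libraries, with a log2 fold change of -0.52 (adjusted p = 1.8e-07 by DESeq2 and 0.071 by edgeR). Zfp568 had 42.7, 50.6, 34.4 and 53.8 CPM in rescue nuclei against 57.2, 67.9, 68.1 and 63.3 CPM in knockdown nuclei, a log2 fold change of -0.53 (adjusted p = 0.037 by DESeq2 and 0.38 by edgeR). Zfp386 had 33.4, 32.2, 36.3 and 36.3 CPM in rescue nuclei against 42.7, 40.5, 46.8 and 46.1 CPM in knockdown nuclei, a log2 fold change of -0.38 by edgeR (adjusted p = 0.35) and -0.39 by DESeq2 (adjusted p = 0.016). For these 2 genes as well the rescue and knockdown libraries do not overlap.

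Against control, rescue cells still had 63 members higher and 11 lower in total RNA, beside 18.3% and 19% of all genes. With the replicate number as a block there were 103 and 17, beside 29.6% and 28.3%. In cytoplasm there were 77 higher and 12 lower, beside 17.2% and 18.4%, and in nuclei 27 higher and 8 lower, beside 11.5% and 12.2%, or 60 and 27 with the block, beside 24.4% and 25.5%. The falling members rested on few libraries. In total RNA they were 5 without pEx5 control replicate 2, 6 without mEx5 control replicate 2 and 7 without mEx5 rescue replicate 2. In nuclei they were 2 without mEx5 control replicate 2, mEx5 rescue replicate 2, pEx5 control replicate 2 or pEx5 rescue replicate 1, 3 without mEx5 rescue replicate 1 and 5 without mEx5 control replicate 1. In cytoplasm they were 6 without mEx5 rescue replicate 2 or pEx5 rescue replicate 1, and 7 without mEx5 control replicate 1 or mEx5 rescue replicate 1. Over all genes, leaving out single libraries called 13.7% to 19.6% lower in total RNA, 6.72% to 11.9% in nuclei and 12.8% to 23.4% in cytoplasm. The higher members were 42 to 72 in total RNA, 18 to 28 in nuclei and 60 to 92 in cytoplasm when single libraries were left out. Over all genes 13% to 19.3%, 6.63% to 11.4% and 12% to 21.1% were higher in the same order. Rescue and knockdown share the control libraries, so their values stand side by side only. The median log2 fold change over the members was 0.18 for rescue and 0.17 for knockdown in total RNA, 0.10 and 0.17 in nuclei, and 0.24 and 0.24 in cytoplasm.

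Zfp651 had 36.1, 41.0, 34.3 and 39.7 CPM in rescue total RNA, close to its knockdown values, a log2 fold change over control of 0.86 ± 0.06 (SE, adjusted p = 2e-05). Zfp961 had 15.9, 16.3, 15.3 and 16.3 CPM in rescue total RNA, a log2 fold change over control of 1.03 ± 0.09 (SE, adjusted p = 5.5e-05). Neither gene's rescue values overlap its control values. In cytoplasm Zfp961 had 16.4, 17.8, 17 and 17 CPM in rescue, between its knockdown and control values. Zfp362 had 39.0, 37.5, 39.5 and 43.0 CPM in rescue total RNA, a log2 fold change over control of -0.68 ± 0.06 (SE, adjusted p = 5.7e-05), so it stayed below every control library.

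Whether the cDNA with exon 5 acted otherwise than the one without it was asked by the difference between lines of rescue over knockdown. edgeR and DESeq2 both called 0 members in either direction in all 3 fractions, and 0% of all genes by edgeR. At an unadjusted p under 0.05 there were 0 higher and 3 lower in total RNA, 0 and 0 in nuclei, and 1 and 3 in cytoplasm. All genes at that p made up 0.715% higher and 0.346% lower in total RNA, 0.108% and 0.173% in nuclei, and 0.606% and 2.51% in cytoplasm. The median standard error of that difference was 0.19 in total RNA, 0.24 in nuclei and 0.19 in cytoplasm on the log2 scale. Differences of that order could not be seen, and larger ones also went without a call. Zfp120 differed by -0.54 in cytoplasm (SE 0.195, unadjusted p = 0.017 by edgeR) and was not called. Without pEx5 knockdown replicate 2, 7 members were called lower in cytoplasm, against 2.78% of all genes. The rescue change of the nuclear to cytoplasmic ratio was called in 0 members by edgeR and by DESeq2, beside 0% of genes higher and 0.0216% lower, with 0 higher and 16 lower at an unadjusted p under 0.05, beside 0.942% and 1.75% of all genes.

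Knockdown itself gave like medians in both lines for total RNA, 0.15 in mEx5 and 0.19 in pEx5, and for cytoplasm, 0.25 and 0.24. In nuclei the medians were 0.07 in mEx5, with 16 members higher and 2 lower beside 5.87% and 5.92% of all genes, and 0.28 in pEx5, with 40 higher and 5 lower beside 9.64% and 10.1%. The difference of the knockdown change between lines, a test added after these values were seen, was called by edgeR in 0 members in every fraction, and in nuclei 19 members were higher and 2 lower in pEx5 at an unadjusted p under 0.05, beside 3.02% and 3.52% of all genes.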

How the data were processed

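The deposited read counts per gene were made by the authors with Salmon 0.14.1 on mm10, per the submitters' processing notes, which also name DESeq2. Which genes were kept for that table is not stated, and its lowest count is 1. The RPKM values, the authors' deposited log2 ratios of nuclei over cytoplasm and the iCLIP mark were used as deposited by the authors. Of the per-sample columns, 1 had no sample in the labels and was not used.

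Counts were fitted per fraction, and jointly for nuclei and cytoplasm, with edgeR 4.0.16 in R 4.3.3 (TMM, filterByExpr, robust quasi-likelihood, 1 mean per group). Lines were averaged with equal weight, and p-values were Benjamini-Hochberg adjusted over all genes. The step was tested on simulated data. CPM divides by the library's assigned reads. Standard errors are the log2 fold change over the root of F. DESeq2 1.42.0, other scalings, no filter, the replicate block and leaving out each library were alternatives. Residuals of same-numbered libraries correlated at 0.35 to 0.79 in total RNA, 0.53 to 0.72 in nuclei and 0.06 to 0.65 in cytoplasm. The labels give every group the same pair of biological replicate names without saying what a shared name marks. Pairing was taken to hold in total RNA and nuclei, where every correlation was over 0.1. The main fits do not use it, and the replicate block is given beside them as an alternative.

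Fingers, KRAB boxes and linkers were matched in the translated coding sequence of GENCODE M21 (mm10), since no protein table was used here. Lengths and shared 31-base words came from its longest coding transcript. Coordinates are those of GENCODE M21, whose identifiers matched all 9239 genes. Text names up to 8 highest and 8 lowest called members per knockdown or ratio comparison with the same sign in both lines, and every member of the role lists. The members and lists were chosen with earlier results of these data known.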

Additional observations from a re-analysis of the deposited data

Results flagged for a closer look

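For Zfp148 in nuclei, knockdown libraries lay below control libraries in mEx5 cells (64.9 and 65.95 CPM against 70.5 and 68.7 CPM) and above them in pEx5 cells (79.3 and 68.3 CPM against 52.6 and 61.3 CPM). The pEx5 change exceeded the mEx5 change by 0.44 ± 0.16 on the log2 scale (SE, edgeR adjusted p = 0.72). For Zfp423, a partner of early B-cell factors, the lines differed the other way. In nuclei knockdown libraries had 82.7 and 80.9 CPM against 75.9 and 70.7 CPM in control for mEx5, and 83.1 and 64.1 CPM against 84.5 and 84.7 CPM for pEx5, a difference of -0.38 ± 0.18 (SE, edgeR adjusted p = 0.72). In cytoplasm they had 129.6 and 111 CPM against 99.3 and 92.2 CPM in mEx5, and 104.8 and 91.7 CPM against 110.1 CPM in pEx5, a difference of -0.47 ± 0.26 (SE, edgeR adjusted p = 1). None of the 3 differences passed the test.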

How the results depend on the processing

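With the replicate block, members called higher and lower became 94 and 17 for nuclear knockdown, 60 and 27 for nuclear rescue against control, 1 and 30 for nuclear rescue against knockdown, 103 and 17 for total rescue against control, 1 and 1 for total rescue against knockdown, and 13 and 8 for the knockdown change of the ratio. DESeq2 called 5 lower in nuclear rescue against knockdown. With library totals, 7 fell in cytoplasmic knockdown, and the ratio rose in 3 and fell in 6. The share of all genes that fell in cytoplasm with library totals is not given here, so the 7 cannot be read as particular to the members. The causes were not tested. Leaving out each library gave 2 to 6 higher and 0 to 3 lower for the ratio change, 6 to 12 lower for cytoplasmic knockdown, 0 to 7 higher and 0 to 15 lower for cytoplasmic rescue against knockdown, 0 to 7 lower for the cytoplasmic isoform difference, and 5 to 12, 2 to 11 and 6 to 14 lower for rescue against control in total RNA, nuclei and cytoplasm. The ranges of rising members are given with the results above. Cytoplasmic contrasts with control had no value without pEx5 control replicate 1, the only library of its group. Without the 29 members that share over 20% of their words, an alternative chosen after seeing the data, no count moved by over 1.5 times. Of 3357 values of named genes under alternatives, 3208 kept their direction and side of the threshold, 108 lost the call, 41 gained one and 0 reversed.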
